A study of Mus musculus with 24 samples.

Results

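The immediate early genes described here were Fos, Fosb, Jun, Junb, Egr1, Egr2, Egr3, Atf3, Ier2 and Dusp1, which are 10 of the 22282 mouse genes measured by RNA sequencing in 24 libraries of converted and primary endothelial cells (ECs). They were chosen by name, and each had a single RefSeq transcript row per library. All 10 passed the minimum mean FPKM of 1 that left 14964 genes for testing. FPKM is the number of fragments scaled to transcript length and to the size of the library, a level that can be compared between genes. Differences are given on the scale of log2(FPKM + 1), and a gene was called when limma gave a Benjamini-Hochberg adjusted p, taken over all tested genes, below 0.05 and a log2 fold change above 1 in size.

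Immediate early genes are switched on within minutes of a growth signal, stretch or injury, because the proteins that start their transcription are already in the cell and only need to be phosphorylated. MAP kinases act on Elk factors bound with Srf at CArG boxes, and other kinases act on Creb at cyclic AMP response elements. Fos and Jun family proteins pair to form AP-1, Egr proteins bind GC-rich sites, and Dusp1 removes phosphate from MAP kinases and so ends the signal. Their mRNAs are short-lived, and handling or enzymatic dissociation of a tissue is known to raise them.

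The study converted mouse amniotic cells (MACs), taken from C57BL/6J embryos of stage E11.5-E13.5, into endothelial-like cells. RACVECs were MACs given lentiviruses for the Ets factors Etv2, Erg and Fli1. Akt-MACs and Akt-RACVECs also carried a lentivirus for myristoylated, constantly active Akt. Sox17-RACVECs carried a Sox17 lentivirus and had been selected with puromycin. Akt-RACVECs and Sox17-RACVECs were made by infecting RACVECs. Which isolates were used is not stated, so these groups may share isolates. Adult C57BL/6J ECs from lung (Akt-LECs) and from liver (Akt-liver ECs) were isolated with anti-CD31 beads and grown with the Akt lentivirus. Weeks after infection they were sorted with anti-VEcad and anti-CD31 antibodies. The time from this sort to the RNA extraction is not stated. Liver sinusoidal ECs (LSECs) were sorted straight from the liver, after the circulation had been stained with an anti-VEcad antibody and isolectin, and were not cultured. Each of the 8 groups had 3 libraries, and a MAC replicate was a culture of mixed embryos isolated on its own. Amniotic cells were grown in AmnioMAX before conversion. Cells under conversion were grown in an EC medium with serum, heparin, endothelial mitogen and an inhibitor of TGF-β signalling, to which VEGF-A was added. Lung and liver ECs were also plated in EC medium. The methods of the study do not state the medium of the sequenced MACs and Akt-MACs. The part of the medium in differences between these and converted cells was not tested. LSECs were the 1 group that was not cultured and the 1 group sorted directly from tissue, so culture and the steps of this purification cannot be told apart.

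The sum of FPKM per library was between 1689486 and 2317294, and 12356 to 14985 genes were above 0. Numbers of reads are not given in the sources used here, so the depth is unknown, and a value of 0 sets no limit of detection. Markers of the labelled cell type were high in LSECs. The summed level of 7 sinusoidal genes such as Stab2 and Clec4g was 56660, 46860 and 58020 FPKM in LSECs and at most 11230 in cultured libraries. LSEC libraries also held RNA of other liver cells. All 8 hepatocyte markers were called higher in LSECs, with a sum of 4908, 3558 and 16790 FPKM in LSEC 1 to 3 against 0 to 56.4 in cultured libraries. Red blood cell markers (5 of 5 tested genes called higher) summed to 34830 to 38720 FPKM in LSECs and to at most 70.9 in culture. Macrophage markers (7 of 7) summed to 11780 to 18930 FPKM in LSECs, and to 13170 and 41200 in Akt-MAC 2 and 3. Lymphocyte markers (5 of 5) summed to 180 to 278 FPKM in LSECs, and to 151 and 313 in Akt-MAC 2 and 3. Of 6 stellate cell and pericyte markers, 2 were called higher in LSECs. In Akt-liver EC 1 and Akt-LEC 1 the macrophage sums were 1025 and 1336 FPKM. Their sums of 5 amniotic or mesenchymal markers were 1827 and 2757 FPKM. The other libraries of these groups had at most 18.6 and 130 FPKM. In bulk samples, fewer cells of a type and less RNA per cell cannot be told apart. The part of these other cell types in the members' values was not tested.

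In the LSECs, 8 of the 10 genes reached their highest level of the series in 1 library, LSEC 3. The share of all tested genes that peaked in this library is not given here. Fos, the main partner of Jun in AP-1, was at 818, 867 and 6608 FPKM in LSEC 1, 2 and 3, and at 2.91, 224 and 2004 (lowest, median and highest) over the 21 cultured libraries. LSEC 1 and 2 thus lay above 17 of the 21 cultured libraries, and LSEC 3 above all of them. In LSEC 3, Fos was the 21st most abundant gene of all, and in RACVEC 2 it stood at place 11723.

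Fosb, a Fos paralog, was at 43.4, 64.99 and 974 FPKM in LSECs and at 0.90, 5.89 and 671 over the cultured libraries. Both lower LSEC values exceeded 16 of the 21 cultured libraries, and the highest was 15.0 times the next LSEC library. Jun was at 630, 887 and 4379 FPKM in LSECs, and its cultured levels ran from 125 through a median of 266 to 1110. Its cultured range was narrow, and 17 cultured libraries lay below every LSEC library. Junb, which also joins AP-1 and can dampen Jun, was at 737, 1096 and 4015 FPKM against 70.5, 307 and 1267 in culture. Again 17 of 21 cultured libraries lay below all LSECs. Atf3, a stress-induced factor that pairs with Jun, was at 207, 200 and 1757 FPKM in LSECs, and its lowest, median and highest cultured levels were 9.71, 97.2 and 594. LSEC 1 and 2 lay among the upper cultured libraries, above 16 of 21.

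The zinc finger factors of the Egr family behaved differently among themselves. Egr1 was at 254, 251 and 2417 FPKM in LSECs and at 5.71, 389 and 1304 in culture. LSEC 1 and 2 were therefore below the cultured median. Egr2, better known for its role in Schwann cells, was at 12.9, 10.2 and 21.2 FPKM in LSECs, and its cultured libraries ran from 0 (6 of 21) through a median of 6.67 to 55.2. Egr3 was the 1 member that was low in every LSEC library, at 3.04, 3.77 and 4.04 FPKM, beside a cultured range of 0 (4 of 21 libraries) to 124 with a median of 6.06. For these low-level paralogs LSEC 3 was close to its group, at 1.65 times the next LSEC library for Egr2 and 1.07 times for Egr3.

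Ier2, a small nuclear protein of the early response, was at 353, 460 and 1733 FPKM in LSECs and at 56.2, 208 and 862 in culture. Dusp1 was at 1098, 1545 and 5927 FPKM in LSECs and at 93.6, 642 and 1660 in culture. It was the most clearly separated member, with 18 of 21 cultured libraries below every LSEC library, although no member was free of overlap. Its cultured median was also the highest of the 10.

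**Figure D1:**
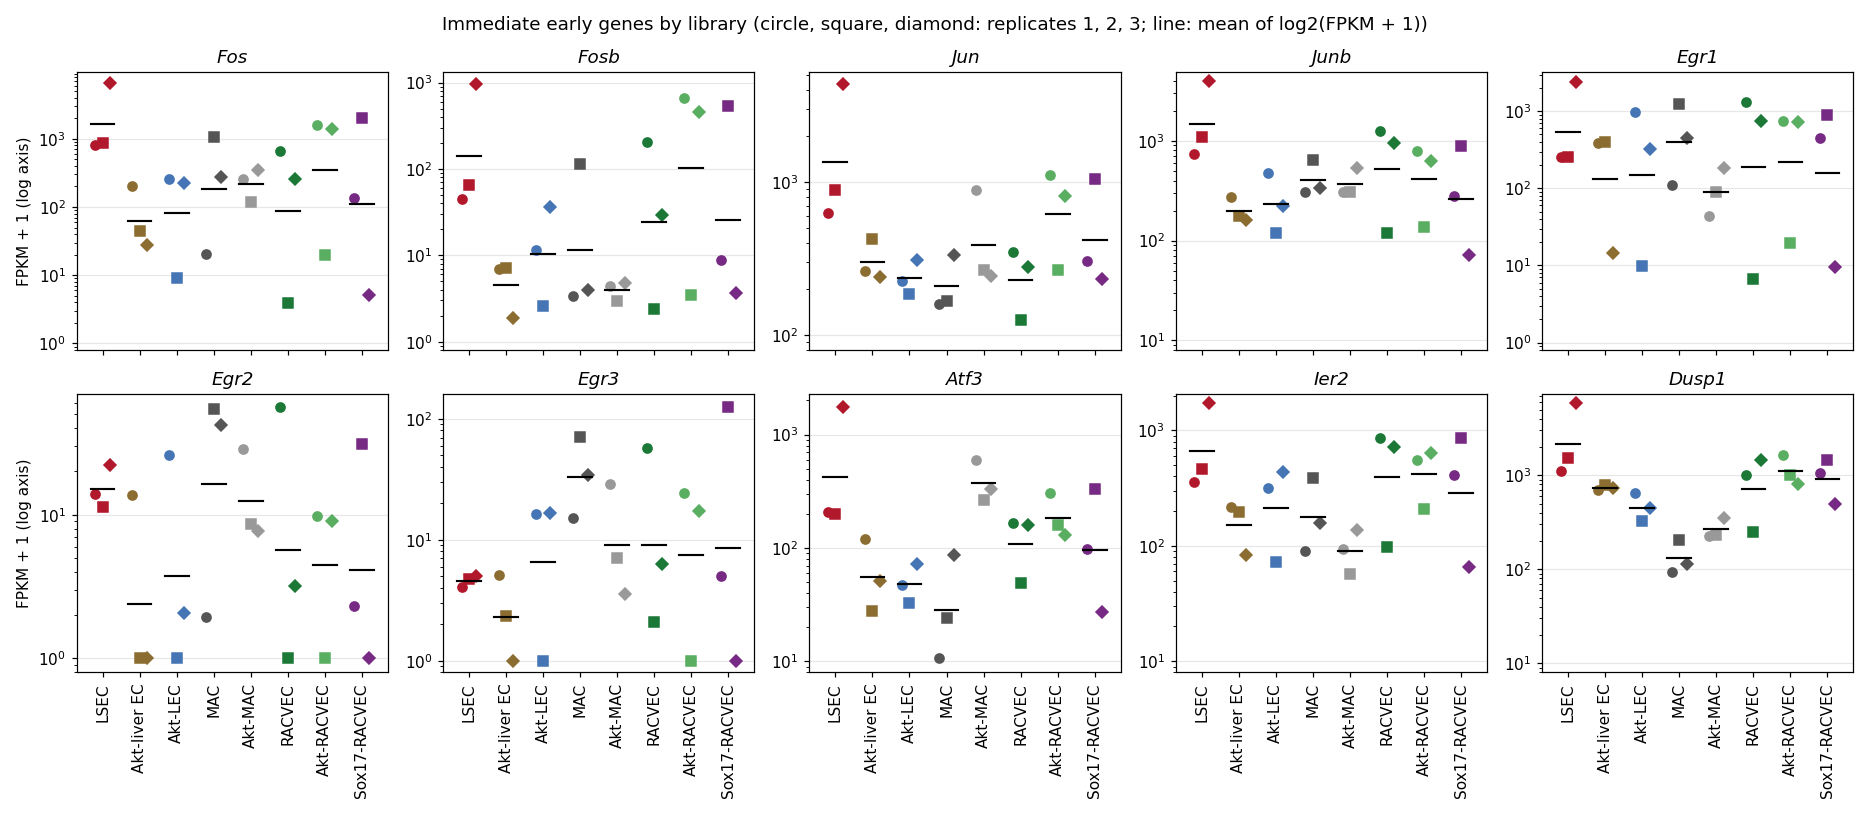
Level of each of the 10 genes in all 24 libraries, as FPKM + 1 on a log axis, with groups along the x axis. Circles, squares and diamonds are replicates 1, 2 and 3, and the line is the mean of log2(FPKM + 1). LSEC 3 lies on top in every panel but Egr2 and Egr3, and Fos spans 2.91 to 6608 FPKM.

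The first comparison asked how the directly purified LSECs differ from cultured cells, with the LSEC mean set against the mean of the 7 cultured groups. Of the 10 genes, 4 were called higher and 0 lower by limma, while 15.6% of all tested genes were called higher and 15.3% lower. The 4 were Dusp1, Jun, Junb and Atf3. The median log2 fold change of the 10 was 2.09, beside -0.12 over all tested genes, and 9 of the 10 values were positive. Dusp1 was higher by a log2 fold change of 2.09 (SE 0.466, adjusted p = 0.0013), and Jun by 2.08 (SE 0.545, adjusted p = 0.00454). Junb was higher by 2.19 (SE 0.706, adjusted p = 0.0168) and Atf3 by 2.19 (SE 0.705, adjusted p = 0.0165).

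The largest differences were not called, and there the libraries of a group lay far apart. Fos differed by 3.66 (SE 1.68, adjusted p = 0.0827) and Fosb by 3.29 (SE 1.60, adjusted p = 0.102). Ier2 differed by 1.59 (SE 0.733, adjusted p = 0.085), and without the adjustment Fos and Ier2 passed a p of 0.05, making 6 genes in all. Egr1 differed by 1.65 (SE 1.65), Egr2 by 1.41 (SE 1.27) and Egr3 by -0.84 (SE 1.22), with adjusted p of 0.428, 0.373 and 0.588. Under the criterion of the study's methods, which takes the ratio of averaged FPKM and an unadjusted p, and which was computed here with 1 added to each average, none of the 4 was called and Egr3 was called lower, at a log2 ratio of -2.19.

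Much of this rested on LSEC 3. Without it, Dusp1 alone was still called (log2 fold change 1.37, SE 0.483, adjusted p = 0.0364). Jun then stood at 1.23 (adjusted p = 0.103), Junb at 1.47 (adjusted p = 0.177) and Atf3 at 1.15 (adjusted p = 0.247). Fos was at 2.67 and Fosb at 1.90, while Egr1 stood at 0.56 and Ier2 at 0.89. The median of the 10 fell from 2.09 to 1.19, and all 10 values kept their sign. Leaving out Sox17-RACVEC 2 instead, the highest cultured library, raised the count to 6, with Fos (adjusted p = 0.0445) and Fosb (adjusted p = 0.0495) added.

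**Figure D2:**
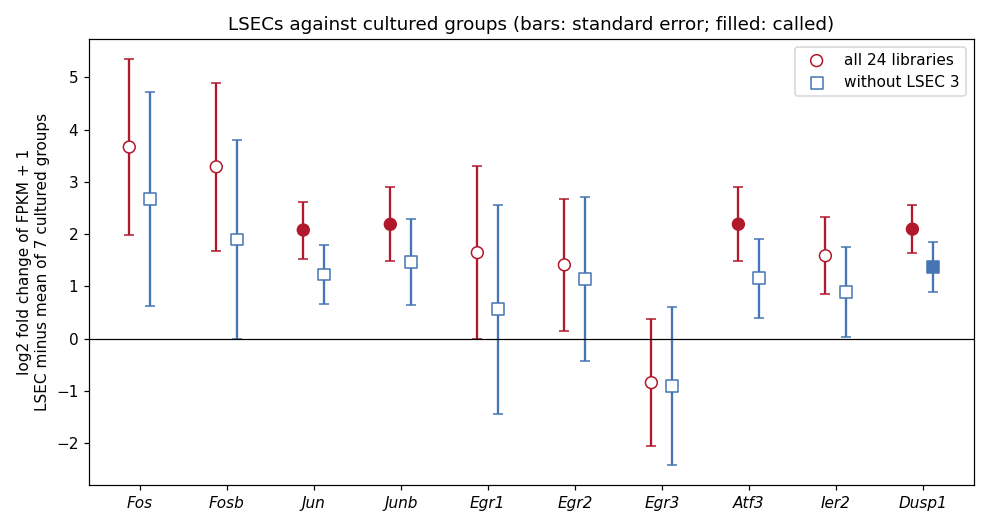
Log2 fold change of FPKM + 1 between LSECs and the mean of the cultured groups for each gene, with bars of 1 standard error; circles use all libraries, squares leave out LSEC 3, and filled symbols were called. With all libraries 4 genes are filled, and without LSEC 3 only Dusp1, at 1.37.

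LSEC 3 also stood apart from the other LSEC libraries in other respects. The log2 difference between LSEC 3 and the mean of LSEC 1 and 2 was 4.17 for Fosb, 3.25 for Egr1, 3.10 for Atf3 and 2.97 for Fos. These lay at the 99.9th, 99.8th, 99.7th and 99.7th percentile of all tested genes, whose 99th percentile was 2.32. Jun (2.55), Dusp1 (2.19), Junb (2.16) and Ier2 (2.10) lay between the 98.5th and the 99.4th percentile. Egr2 (0.83) and Egr3 (0.20) lay at the 91.5th and the 71.3rd. The hepatocyte sum was 3.97 times that of the other LSEC libraries in this library, and the macrophage sum was 0.678 times. The median difference was 1.75 over the 8 hepatocyte markers, 1.28 over 5 amniotic or mesenchymal markers, 1.15 over 29 other rapidly induced genes and 0.18 over 11 heat shock genes. The mesenchymal markers summed to 95.7, 98.2 and 204 FPKM in LSEC 1 to 3. The part of hepatocyte and mesenchymal RNA in the members' values in LSEC 3 was not tested.

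Set against each cultured group on its own, all sharing the same LSEC libraries, the LSECs gave 15 calls of 70, all higher. Against Akt-LECs 4 genes were called (12.8% of all tested genes were called higher), by log2 fold changes of 3.12 for Atf3, 2.67 for Junb, 2.52 for Jun and 2.26 for Dusp1. Against Akt-liver ECs, the same organ in culture, 3 were called (12.9% of all), with log2 fold changes of 2.91 for Junb, 2.91 for Atf3 and 2.17 for Jun. Against MACs 3 were called (16.0% of all), and here Dusp1 had the largest difference among the called members at 4.04 (SE 0.617, adjusted p = 4.67e-05), followed by Atf3 at 3.90 and Jun at 2.70. Against Akt-MACs Dusp1 and Ier2 were called (11.6% of all), by 3.02 and 2.87. Against RACVECs Jun and Dusp1 were called (15.2% of all), Dusp1 just so, at 1.59 (adjusted p = 0.0499).

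Against Sox17-RACVECs Junb alone was called (15.5% of all), at 2.50 (adjusted p = 0.0434). Against Akt-RACVECs limma called 0 of the 10 (14.1% of all), 0 at an unadjusted p below 0.05 and 0 by the criterion of the study's methods. The log2 fold changes there ran from -0.70 to 2.26. Of the 10 genes 0 were called lower in these 7 contrasts by limma, also without adjustment, while the share of all genes called lower was 14.1% against Akt-liver ECs, 12.1% against Akt-LECs, 16.2% against MACs, 18.0% against Akt-MACs, 14.7% against RACVECs, 13.2% against Akt-RACVECs and 12.9% against Sox17-RACVECs. Without LSEC 3 the 15 calls fell to 3, which were Dusp1 and Atf3 against MACs and Dusp1 against Akt-MACs. Dusp1 against RACVECs and Junb against Sox17-RACVECs stood so near the threshold that 19 and 8 of the 24 libraries, left out singly, ended the call, with values down to 0.82 without RACVEC 2 and 1.57 without Sox17-RACVEC 3. Each call against Akt-liver ECs was also lost without Akt-liver EC 3, Jun's without Akt-liver EC 1, and those of Junb and Atf3 without Akt-liver EC 2. Against Akt-LECs, Junb and Atf3 were lost without Akt-LEC 2, and Junb without Akt-LEC 3 or LSEC 2. Ier2 against Akt-MACs was lost without Akt-MAC 1 or 2.

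The second comparison was among the cultured groups. A moderated F test over the 7 groups found differences for 27.0% of all tested genes, and among the 10 for Dusp1 alone (F = 6.36, adjusted p = 0.00909). Atf3 came next (F = 3.65, adjusted p = 0.0525), and it passed as well when any 1 of 6 libraries was left out: LSEC 3, Akt-liver EC 1, MAC 3, RACVEC 2, Sox17-RACVEC 2 or Sox17-RACVEC 3. For the other 8 the adjusted p was between 0.412 and 0.994, with Fos at 0.943 and Egr1 at 0.994.

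Dusp1 was lowest in MACs, at 93.6, 206 and 114 FPKM (138 ± 59.9, SD, n = 3). Akt-MACs followed at 227, 231 and 352 (270 ± 71.0), and Akt-LECs at 642, 322 and 443 (469 ± 161). Akt-liver ECs held it within a small range, at 701, 780 and 735 (739 ± 40.0). The groups with the Ets factors had the highest mean FPKM among the cultured cells, though they were wide apart within themselves. RACVECs were at 1018, 247 and 1462 FPKM (909 ± 615), Sox17-RACVECs at 1067, 1470 and 489 (1009 ± 493), and Akt-RACVECs at 1660, 1000 and 813 (1158 ± 445). RACVEC 2 lay below every Akt-liver EC library, and by the mean of log2(FPKM + 1) RACVECs (9.49) stood below Akt-liver ECs (9.53), a pair that was not compared by a test. Of the neighbours in the order of mean FPKM, MACs with Akt-MACs, Akt-LECs with Akt-liver ECs, RACVECs with Sox17-RACVECs and Sox17-RACVECs with Akt-RACVECs were compared by limma, and none of these differences was called.

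Of 9 pairs of cultured groups, with 90 member values in all, 3 values were called. Dusp1 was higher in RACVECs than in MACs by a log2 fold change of 2.46 (SE 0.617, adjusted p = 0.0358), as 1 of 10 members called where 2.71% of all genes were. All 3 RACVEC libraries lay above the MAC libraries. Dusp1 was also higher in Akt-RACVECs than in Akt-MACs by 2.06 (SE 0.617, adjusted p = 0.0226), in a pair where 19.5% of all genes were called. The lowest Akt-RACVEC library, at 813 FPKM, lay well above the highest Akt-MAC library, at 352.

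Atf3 was the third. It was at 9.71, 23.1 and 85.3 FPKM in MACs and at 594, 264 and 333 in Akt-MACs, so the groups did not overlap. The log2 fold change was 3.74 (SE 0.932, adjusted p = 0.036), in a pair where 2.81% of all genes were called. RACVECs were at 164, 48.3 and 158 FPKM and Akt-RACVECs at 303, 160 and 129, a difference of 0.77 (SE 0.932, adjusted p = 0.77). The change with Akt was thus smaller by 2.97 (SE 1.32) in RACVECs than in MACs, and this interaction was not significant over all genes by limma (adjusted p = 0.372). The 2 Akt-MAC libraries with the high macrophage sums held 264 and 333 FPKM of Atf3, and Akt-MAC 1, at 594, had a macrophage sum of 880 FPKM. The part of macrophage RNA in the difference was not tested.

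Each of these calls could be lost by leaving out 1 library of its groups. For Dusp1 in RACVECs against MACs this held for MAC 1, MAC 3, RACVEC 1 or RACVEC 3 (1.94 to 2.36), for Dusp1 in Akt-RACVECs against Akt-MACs for Akt-MAC 1, Akt-MAC 2 or Akt-RACVEC 1 (1.76 to 1.96), and for Atf3 for every library but MAC 3 (3.04 to 3.98).

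In the other 6 pairs limma called 0 of the 10, 0 at an unadjusted p below 0.05 with the same fold and 0 by the criterion of the study's methods. Few genes of any kind were called there. The share was 0.261% for Akt-RACVECs against RACVECs and likewise 0.261% for RACVECs against Akt-LECs. It was 0.0134% for Akt-LECs against Akt-liver ECs, 0.00668% for Sox17-RACVECs against RACVECs and for Akt-RACVECs against Akt-LECs, and 0.0% for Sox17-RACVECs against Akt-RACVECs. Sox17 thus went with log2 fold changes from -1.01 to 0.87 in the 10 genes, none beyond the replicate spread, and Akt in RACVECs with -0.36 to 2.07.

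Within the cultured groups the single libraries lay far apart. Fos was at 656, 2.91 and 256 FPKM in the 3 RACVEC libraries, at 1573, 18.7 and 1378 in Akt-RACVECs, and at 133, 2004 and 4.14 in Sox17-RACVECs. The highest was thus 225, 84.2 and 484 times the lowest within these groups. In MACs Fos was at 19.8, 1064 and 276 FPKM and in Akt-LECs at 260, 8.24 and 224. Akt-liver ECs (201, 42.8 and 26.7) and Akt-MACs (253, 119 and 353) spread less, and in LSECs the ratio was 8.08.

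Egr1 was lowest in the same library as Fos in 6 of the 7 cultured groups, the exception being Akt-MACs. It was at 1304, 5.71 and 751 FPKM in RACVECs, at 739, 18.5 and 732 in Akt-RACVECs, and at 455, 905 and 8.46 in Sox17-RACVECs. Akt-LECs were at 985, 8.90 and 327, and Akt-liver ECs at 389, 401 and 13.4. In MACs, Egr1 was at 110, 1237 and 449 FPKM and in Akt-MACs at 43.1, 87.8 and 181. The highest was thus 228 times the lowest in RACVECs and 111 times in Akt-LECs, while Dusp1 differed by no more than 5.92 times within any group.

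In most cultured groups 1 library was the extreme one for most members. RACVEC 2, Akt-LEC 2, MAC 1 and Sox17-RACVEC 3 were each lowest in their group for all 10 genes, counting no ties, Akt-RACVEC 2 for 8 and Akt-liver EC 3 for 7, but in Akt-MACs the most frequent lowest library, Akt-MAC 2, was so for 5. Sox17-RACVEC 2 was highest for all 10, RACVEC 1 and Akt-RACVEC 1 for 9 and MAC 2 for 8. In Akt-liver ECs and Akt-MACs the library most often highest was so for 6 genes, and in Akt-LECs for 5. LSEC 3 was highest for all 10 as well. Such counts over all tested genes are not given here. The 10 genes made up 0.0361% of the summed FPKM in RACVEC 2, 0.47% in Sox17-RACVEC 2 and 1.20% in LSEC 3. The ratio of Fos to Jun mRNA also moved, and was 0.0178 in Sox17-RACVEC 3 and 6.39 in MAC 2. The proteins were not measured in these libraries.

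**Figure D3:**
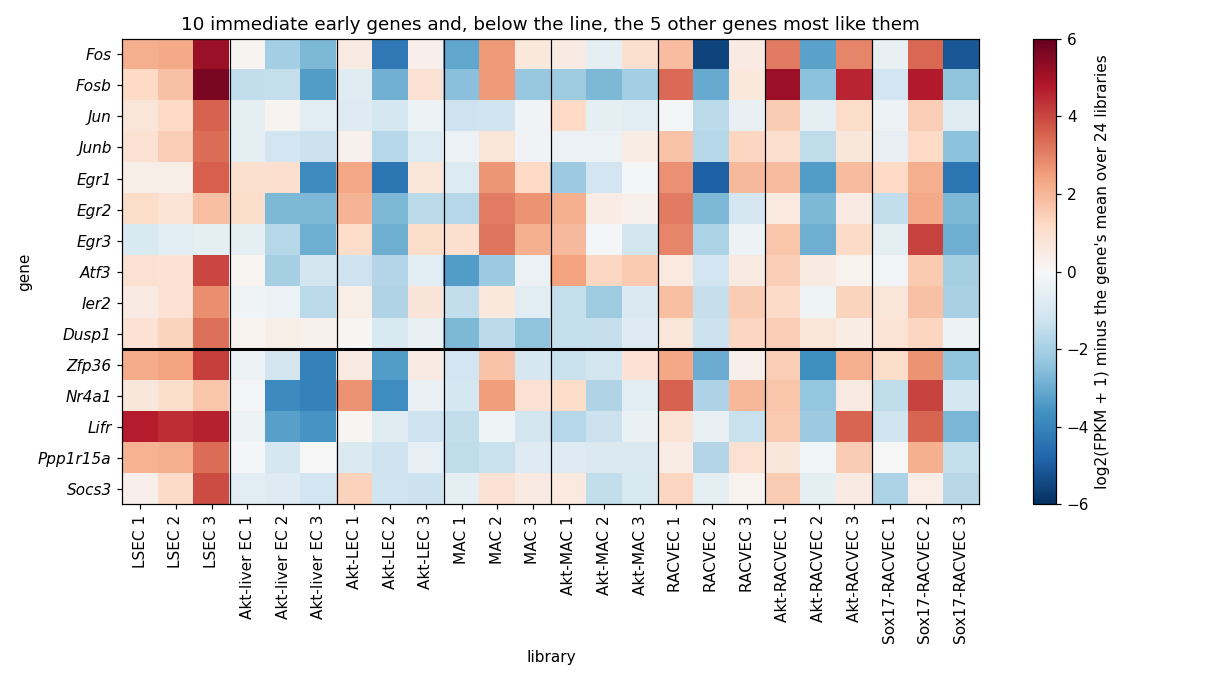
Log2(FPKM + 1) minus the gene's mean over the 24 libraries, with genes in rows and libraries in columns, red for higher and blue for lower, for the 10 genes and, below the thick line, the 5 other genes most like them in culture. Columns are mostly of 1 colour, blue in RACVEC 2 and Sox17-RACVEC 3 and red in LSEC 3 and Sox17-RACVEC 2.

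The SD between libraries of a group, pooled over the 8 groups on the log2 scale, was 2.93 for Fos, 2.88 for Egr1 and 2.79 for Fosb, against a median of 0.508 over all tested genes. These lay at the 99.8th, 99.7th and 99.6th percentile. Egr2 (2.19) and Egr3 (2.10) lay at the 98.2nd and the 97.8th, so that 5 of the 10 were above the 95th percentile of 1.79. Ier2 (1.27), Junb (1.23) and Atf3 (1.22) lay between the 84.2nd and the 85.6th percentile, Jun (0.943) at the 74.6th and Dusp1 (0.802) at the 68.2nd. Dusp1, Jun, Atf3, Junb and Ier2, the 5 genes called by limma in any comparison, were the 5 with the smallest spread. The test divides each difference by an error built from this spread, so a small spread by itself favours a call.

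**Figure D4:**
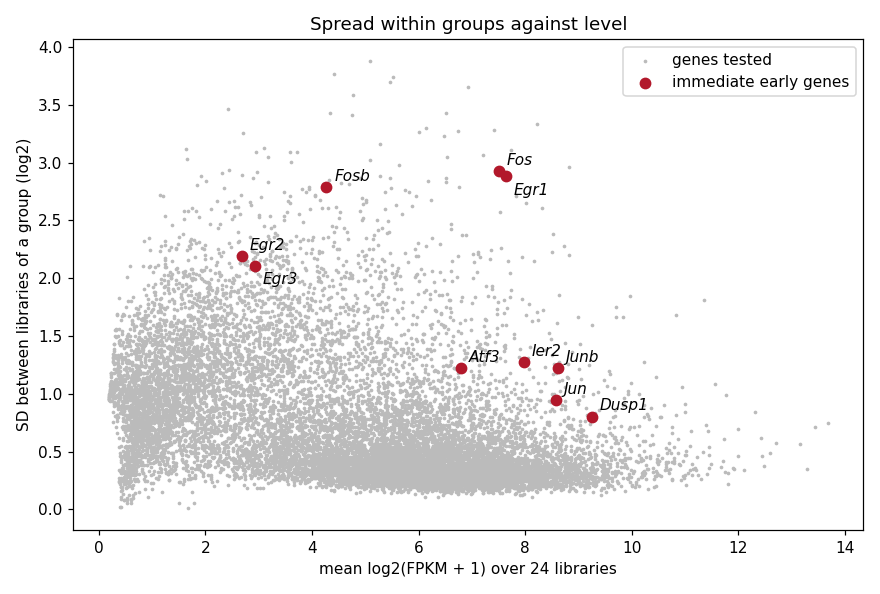
SD between libraries of a group (log2 scale, y axis) against the mean log2(FPKM + 1) over 24 libraries (x axis) for all tested genes (grey) and the 10 genes (red). Fos (2.93) and Egr1 (2.88) stand above most genes of their level, and Dusp1 (0.802) is the lowest of the 10.

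Within the cultured groups the 10 genes varied together. Over the deviations of the 21 cultured libraries from their group means, 44 of the 45 pairs of members had a Pearson r over 0.5, with a median of 0.774. Over all pairs of tested genes that varied, 6.83% passed 0.5. The highest r was 0.947, between Fos and Ier2, and the lowest was 0.431, between Jun and Dusp1. Fos with Junb (0.95) and Egr1 with Ier2 (0.94) were nearly as high, while Fosb and Atf3 stood at 0.50. These are descriptions over 21 libraries that share their normalization and whose depth is unknown.

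**Figure D5:**
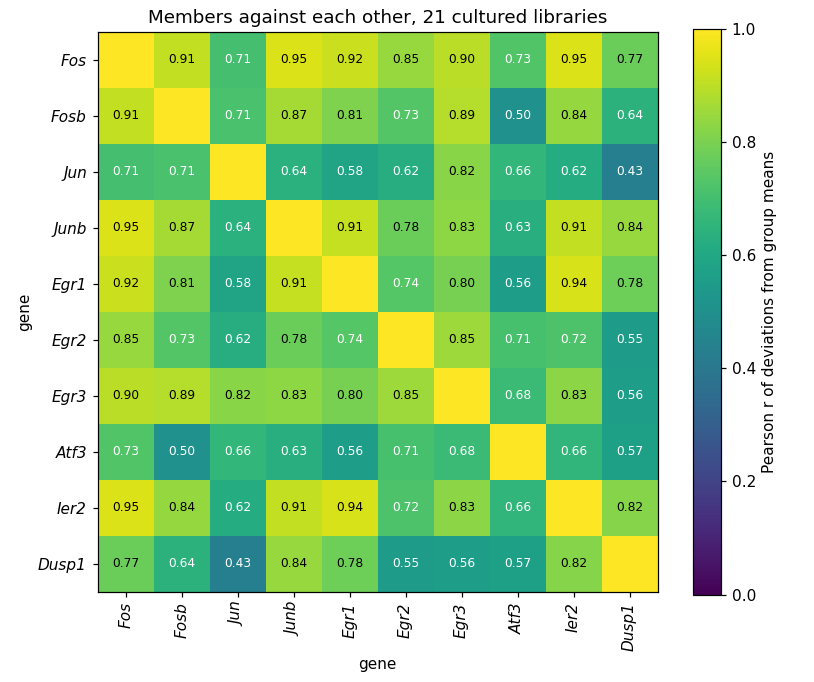
Pearson r between each pair of the 10 genes over the deviations of the 21 cultured libraries from their group means, from dark (low) to yellow (high). Fos, Junb, Egr1 and Ier2 form the block of highest values, up to 0.947, and the weakest pair is Jun with Dusp1 at 0.431.

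The mean log2(FPKM + 1) of the 10 genes ran over the cultured libraries from 4.11 in RACVEC 2 to 9.02 in Sox17-RACVEC 2. Its group means were from 5.61 in Akt-liver ECs to 7.23 in Akt-RACVECs, and 8.31 in LSECs. Over the 21 cultured libraries its Pearson r was -0.13 with the summed FPKM and -0.15 with the number of genes above 0. It was 0.03 with the heat shock sum, 0.10 with the macrophage sum and 0.55 with the sum of other rapidly induced genes. With single heat shock genes r ran from -0.40 (Hsph1) to 0.20 (Hspa5), and was 0.16 for the inducible Hspa1a. The 5 other genes with the highest r, among 11649 with a mean FPKM of at least 10, were Zfp36 (0.909), Nr4a1 (0.842), Lifr (0.738), Ppp1r15a (0.719) and Socs3 (0.710). Zfp36 binds AU-rich mRNAs and speeds their decay, Nr4a1 is an inducible orphan nuclear receptor, and Socs3 restrains cytokine signalling through the LIF receptor family, to which Lifr belongs. Nr4a1, for example, was at 974, 22.6 and 337 FPKM in RACVECs, high and low in the same libraries as Fos. Of these 11649 genes, 0.987% had an r over 0.5, and of 27 other rapidly induced genes 5 did.

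The starts of the genes were searched for the sites through which this response is known to be driven. RefSeq promoter windows (GRCm38.p6), from 250 bases before to 50 after the start, were matched for 7 of the 10 genes, in 11 windows, and none is given for Egr1, Egr3 and Ier2. Of 6 motifs read on both strands, the CArG box was found in 1.63% of all 32851 windows, the cyclic AMP response element TGACGTCA in 1.79%, the AP-1 site TGANTCA in 7.81%, the Ets site CCGGAA in 14.9%, the Egr site GCGNGGGCG in 5.55% and the TATA box TATAAA in 13.6%. The stretches below are the 150 bases before the start of 4 genes in which a motif lay, with the match in capitals: a response element in Dusp1 (chr17:26508473-26508622, minus strand), a CArG box in Egr2 (chr10:67537719-67537868, plus strand), a TATA box in Fos (chr12:85473740-85473889, plus strand) and an Egr site in Fosb (chr7:19310046-19310195, minus strand).
Dusp1: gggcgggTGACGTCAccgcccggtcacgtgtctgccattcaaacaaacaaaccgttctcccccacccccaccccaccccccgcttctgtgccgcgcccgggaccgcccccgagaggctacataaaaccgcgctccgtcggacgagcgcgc
Egr2: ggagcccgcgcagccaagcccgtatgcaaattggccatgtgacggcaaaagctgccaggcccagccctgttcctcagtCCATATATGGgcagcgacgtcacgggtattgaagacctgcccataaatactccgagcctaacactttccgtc
Fos: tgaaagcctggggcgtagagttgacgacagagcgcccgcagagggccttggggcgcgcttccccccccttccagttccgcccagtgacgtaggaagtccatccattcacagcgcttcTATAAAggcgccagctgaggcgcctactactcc
Fosb: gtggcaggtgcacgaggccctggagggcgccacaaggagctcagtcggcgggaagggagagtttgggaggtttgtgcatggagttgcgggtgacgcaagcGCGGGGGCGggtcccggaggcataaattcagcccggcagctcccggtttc

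The match began 143 bases before the start in Dusp1, 72 in Egr2, 33 in Fos and 50 in Fosb. A further start of Egr2 had another CArG box 72 bases before it, with 3 Ets matches nearby, of which 2 overlap. In Junb a TATA match lay at or behind the start, and the windows of Jun and Atf3 held none of the 6 motifs. These are matches of letters and not bound sites, and sites in farther regions were not searched.

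On the genome build of the files (mm9), the genes lie at chr12:86814840-86818223 (Fos), chr7:19888070-19895394 (Fosb), chr4:94715725-94718913 (Jun), chr8:87500811-87502617 (Junb), chr18:35020861-35024638 (Egr1), chr10:66998223-67004936 (Egr2), chr14:70477252-70479964 (Egr3), chr1:192994175-193007219 (Atf3), chr8:87185230-87186751 (Ier2) and chr17:26642535-26645464 (Dusp1). Junb and Ier2 are both on chromosome 8, and their r over the cultured libraries was 0.907. The pair with the highest r, at 0.947, was Fos on chromosome 12 and Ier2 on chromosome 8. The part of position in this was not tested.

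Other genes of the pathway were read from lists, in LSECs against the mean of the cultured groups, where 15.6% of all genes were called higher and 15.3% lower. Of 12 tested AP-1 related factors, 3 were higher and 3 lower. Batf2, a partner of Jun in immune cells, was at 42.4, 47.0 and 37.6 FPKM in LSECs and at most 11.6 in culture, a log2 fold change of 4.67. Batf, a relative of Batf2, was higher by 4.33, at 39.4 to 85.0 FPKM in LSECs. In culture it was at 68.5 and 115 FPKM in Akt-MAC 2 and 3, the libraries with the high macrophage sums, and at most at 15.2 elsewhere. The part of macrophage RNA in this was not tested. In the opposite direction, Fosl1, a growth-related Fos relative, was listed at 0 in all LSEC libraries and at 0.64 to 452 in culture. Maff, a small Maf protein, was lower by a log2 fold change of -3.91 (adjusted p = 0.00068).

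Of 29 other rapidly induced genes, 7 were called higher and 4 lower, with a median log2 fold change of 0.14. Zfp36 was higher, at 1157, 1297 and 4374 FPKM beside a cultured median of 195, by 3.35 (adjusted p = 0.0362). Ptgs2, the inducible prostaglandin synthase, was lower by -5.08, and the matrix protein genes Ccn1 and Ccn2 by -3.88 and -2.98. Ccn1 was at 36.0, 32.5 and 408 FPKM in LSECs, again with LSEC 3 on top, and at 74.0 to 5185 in culture. Without LSEC 3 the count of higher genes in this list fell from 7 to 3.

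Of the 9 other MAP kinase phosphatases, 0 were called higher by limma (0 without adjustment as well) and 3 lower, namely Dusp8 (-2.87), Dusp9 (-2.70) and Dusp4 (-1.54), so that Dusp1 was the phosphatase called in the opposite direction. Of 23 upstream kinases and factors, 2 were higher (Elk3 and Creb1, both by 1.12) and 2 lower (Mrtfa by -1.23 and Map2k1 by -1.07), and the median was -0.15. These last counts moved to between 0 and 2 and between 1 and 4 when 1 library was left out. Of 11 heat shock genes 3 were higher and 3 lower, and the lower count fell to 1 without LSEC 2 or LSEC 3. Hspa1a, an inducible chaperone, was at 1081, 2039 and 945 FPKM in LSECs and at 9.57 to 93.5 in culture, which is 5.45 higher on the log2 scale (limma adjusted p = 1.69e-08), and Hspa1b was higher by 4.59. These near-identical copies can share reads, so their split is uncertain. The third heat shock gene called higher was Dnajb1, by 1.08, at 226, 204 and 452 FPKM in LSEC 1 to 3. The LSEC library with the highest Hspa1a was LSEC 2, and that with the highest Fos and the highest Dnajb1 was LSEC 3.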

How the data were processed

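RNA was sequenced as paired reads of 51 bases from TruSeq libraries. For the extraction the sample labels name Trizol and the methods of the study a column kit. The authors mapped reads with TopHat to mm9 and deposited FPKM per RefSeq transcript from Cufflinks, with upper-quartile scaling and sequence bias correction. Versions and numbers of reads are not given in the sources used here. Each library holds 27583 transcripts, of which 26934 were joined to a current symbol and 649 were kept apart. Values were summed per symbol. No pair of libraries was identical (0). Nothing shows that replicates of every group came from separate animals, so p-values measure the spread between these libraries.

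Log2(FPKM + 1) was fitted with limma 3.58.1 (R 4.3.3) over all 24 libraries and 8 groups, letting the variance follow the mean. Tests were two-sided, and p-values were adjusted after Benjamini and Hochberg across the 14964 genes whose mean FPKM reached 1. The contrasts were LSECs against the mean of the cultured groups, LSECs against each of the 7, and 9 pairs of cultured groups, besides a moderated F test. The code was tested on simulated data. Alternatives were other pseudocounts (0.1 and 10), no filter or a mean FPKM of at least 10, median scaling, a replicate block, transcripts kept apart, no variance trend, fits of the compared groups alone, the study's criterion, and leaving out each library. Figures and descriptions were made in Python (3.11.15; matplotlib 3.10.9, numpy 2.4.6, pandas 2.3.3). Positions are from GENCODE M1. The text gives all 10 members, up to 4 called genes of a list by size of change, and the 5 genes most like the members. Further genes of a list were named only with values to complete a comparison. The members and lists were chosen with earlier results of these data known.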

Additional observations from a re-analysis of the deposited data

How the results depend on the processing

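Of 10 genes, 4 were called in LSECs against the mean of the cultured groups under every alternative that kept all libraries, except the study's criterion, which called 1 (Egr3, lower). Over single left-out libraries the count ran from 1 (without LSEC 3) to 6 (without Sox17-RACVEC 2). Against single cultured groups the 15 calls became 0 under the study's criterion and 3 to 20 with 1 library left out. Among cultured pairs the 3 calls became 0 under that criterion, and 1 to 4 with 1 library left out, the lowest without MAC 1, Akt-MAC 1 or Akt-MAC 2. The F test called 1 to 2 genes with 1 library left out. The criterion compares averaged FPKM without pooled variances, and the cause of its lower counts was not tested. No member value in LSECs against the mean of the cultured groups changed sign, and no called member value did. The signs of the other member values were not followed.

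The replicate numbers of the labels did not pair the libraries across all groups. Deviations of same-numbered libraries correlated with a mean r of 0.02 over 28 pairs of groups, 0 of which had every r over 0.1. Of 24 libraries, 9 correlated best with their own number. Single pairs of groups differed from this mean. Akt-liver ECs with Akt-LECs had an r of 0.57, 0.37 and -0.05 for numbers 1 to 3. Akt-RACVECs with Sox17-RACVECs had 0.26, -0.38 and -0.49. Sharing of isolates within single pairs of groups was not tested. With the replicate block the counts were 4, 14, 3 and 1 for LSECs against the mean, LSECs against single groups, cultured pairs and the F test. Dusp1 in LSECs against RACVECs was lost. A replicate block in fits of only the groups compared, chosen after seeing the data, gave 22 calls against single groups and 1 among cultured pairs. The file headers name MAC 2 like RACVEC 1 and MAC 3 like RACVEC 2, which differs from the replicate numbers. No fit used this, so the calls between RACVECs and MACs are from unpaired libraries or the label numbers.

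The depth is unknown and counting error is not given. The precision is that between 3 libraries of a group, and Fos, Fosb, Egr1, Egr2 and Egr3, with an SD of 2.10 to 2.93 on the log2 scale, were called in no comparison by limma with all libraries in the fit.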
